A study of Homo sapiens with 42 samples.

Results

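RBM5, RBM6, RBM10, RBM23 and RBM39 are genes of RNA-binding motif proteins that act in splicing, and their own transcripts were followed here. All entries under these 5 gene symbols were taken from 8 tables of splicing events, without regard to their values. They came to 213 entries for 94 events over 76 stretches of sequence, out of 79530 events in 11162 genes. RBM39 had 29 events, RBM23 had 25, RBM6 had 18, RBM5 had 14 and RBM10 had 8.

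The tables came from strand-specific mRNA sequencing of 2 established human lines of multiple myeloma, a plasma cell cancer: MM.1S and INA-6. The 42 libraries made 14 groups of 3 libraries, 9 groups in MM.1S and 5 in INA-6. One comparison in each line set cells with interleukin-6 (IL-6), a plasma cell growth factor, against cells without it; where a time is labelled it is 24 hours. The others used cells that express Cas9 and received a guide RNA by lentivirus, were selected in puromycin for 2 days and were all kept with IL-6. Guides against POU2AF1, a B-cell transcriptional coactivator, and ELL2, a transcription elongation factor, were used in both lines. Guides against SRSF1, a splicing activator of the SR family, and HNRNPL, an RNA-binding splicing regulator, were used in MM.1S. The control guide targeted EGFP (sgEGFP). The sgPOU2AF1 and sgELL2 cells of MM.1S each had their own sgEGFP group, while the INA-6 pair shared 1 group and the sgSRSF1 and sgHNRNPL cells shared another. The labels do not say whether the libraries in a group are separate cultures. All p-values therefore rest on a spread between libraries that could be technical only.

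RBM5, RBM6 and RBM10 are related proteins that bind pre-mRNA and the early spliceosome and shift the choice of exons. RBM10 is known to regulate its own transcript and that of RBM5 through splice forms that are degraded by nonsense-mediated decay. RBM39 and RBM23 are related to each other and resemble the large subunit of U2AF, the factor that recognizes the 3′ splice site, and RBM39 is the protein that aryl sulfonamide drugs such as indisulam send for degradation. Splicing factors often control their own levels by including exons that bring a premature stop codon.

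The exons on which the results turn are shown here in the transcript's direction, from GENCODE release 29 transcripts on GRCh38. All are wholly coding in at least 1 annotated protein-coding transcript. Capitals mark each GGA, a core of the purine-rich sites that SRSF1 is known to bind.
RBM10 231-nt exon, chrX:47171028-47171258, plus strand, exon 4 of 24: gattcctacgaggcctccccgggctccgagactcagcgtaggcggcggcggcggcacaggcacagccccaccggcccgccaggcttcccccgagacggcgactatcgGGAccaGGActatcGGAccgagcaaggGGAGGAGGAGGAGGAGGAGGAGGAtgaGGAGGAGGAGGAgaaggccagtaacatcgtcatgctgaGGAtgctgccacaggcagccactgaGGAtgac
RBM5 61-nt exon, chr3:50104248-50104308, plus strand, exon 8 of 25: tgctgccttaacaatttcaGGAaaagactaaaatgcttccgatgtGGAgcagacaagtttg
RBM5 161-nt exon, chr3:50105549-50105709, plus strand, exon 10 of 25: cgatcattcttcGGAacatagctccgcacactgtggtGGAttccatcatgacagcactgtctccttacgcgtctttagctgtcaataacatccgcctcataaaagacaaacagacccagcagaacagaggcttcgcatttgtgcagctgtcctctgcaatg
RBM23 48-nt exon, chr14:22908333-22908380, minus strand, exon 4 of 14: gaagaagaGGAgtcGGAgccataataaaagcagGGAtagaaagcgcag
RBM39 66-nt exon, chr20:35729462-35729527, minus strand, exon 5 of 17: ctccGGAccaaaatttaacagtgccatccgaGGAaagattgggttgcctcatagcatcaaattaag

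The RBM10 exon keeps the reading frame with 77 codons, and its second part is a run of GGA repeats. It held 17 GGA on the transcript strand and 4 on the opposite strand. Among the 272 annotated coding exons of the same length, RBM10's own included, 99.6% held at least 1 GGA, the median held 6, and 0.368% held 17 or more. The RBM23 exon also keeps the frame and held 3 GGA, against a median of 1 in 732 coding exons of 48 nt, of which 8.61% held as many. The RBM5 exons are not multiples of 3 bases. They held 2 GGA each, against medians of 1 in 922 coding exons of 61 nt and 4 in 781 of 161 nt, of which 46.7% and 88.2% held 2 or more. On the opposite strand the 61-nt RBM5 exon held 1, the 161-nt RBM5 exon 5 and the RBM23 exon 0. The RBM39 exon held 2 GGA on each strand. The median was 1 in 1162 coding exons of 66 nt, of which 49.6% held 2 or more. Of the longer motifs GAAGAA and GGAGA, the transcript strand held 1 GAAGAA in the RBM23 exon, found in 8.47% of coding exons of its length, and 1 GGAGA in the RBM10 exon, found in 52.2%. On the opposite strand the 161-nt RBM5 exon held 1 of each. These matches describe the letters and are not sites shown to be bound.

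Inclusion is given as percent spliced in (PSI) of an event's exon, intron or splice site, and a difference is in points of PSI. A PSI holds within its own entry and is not a share of all transcripts of the gene. In the same sgSRSF1 libraries, RBM39's chr20:35740525-35740597 averaged 10.4% in the ENST00000403542 entry and 98.8% in the ENST00000463098 entry. Values are means of 3 libraries ± SD unless single libraries are given. An event was called when its deposited p-value, which proved to be unadjusted, was under 0.05 and the difference was at least 10 points. Adjusted p-values come from limma on logit PSI over the whole table. The sgSRSF1 and sgHNRNPL tables list all events. The remaining tables are restricted to p under 0.05, plus events at 0 for INA-6, so there an unlisted event may be unchanged or unmeasured. Adjustment in those tables runs over events already chosen on the same libraries, so a limma pass adds little to the listing. No read counts are listed, so the depth behind a PSI is unknown, and no expression level of the guides' targets was analysed here.

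With sgSRSF1, 4 of the 5 genes had called events, where 19.1% of all genes in that table did. These gene shares are not matched for number of events, and a gene with more events has more chances of a call. The 5 genes had 85 listed events, while the whole table had 62987 for 9854 genes. The calls in the 5 genes were 13 of 80 events with a p-value over 9 stretches of sequence, 5 higher and 8 lower. All 13 were without overlap of libraries, which the call rule favours. Inclusion fell for the 231-nt exon of RBM10, exons 8 and 10 of RBM5 and the 48-nt exon of RBM23, and RBM6 used an upstream 3′ splice site more. RBM39 had 0 called among 25 events, of which 7 had a deposited p under 0.05 and 2 a limma adjusted p under 0.05. The share called was 5.75% of all events and 16.2% of those of the 5 genes, which include overlapping entries for the same exon. The median absolute difference was 1.04 points for the 5 genes and 1.70 over all events. By limma with adjusted p under 0.05 and at least 10 points, 10 of these events were called, where 4.11% of all events were.

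**Figure D1:**
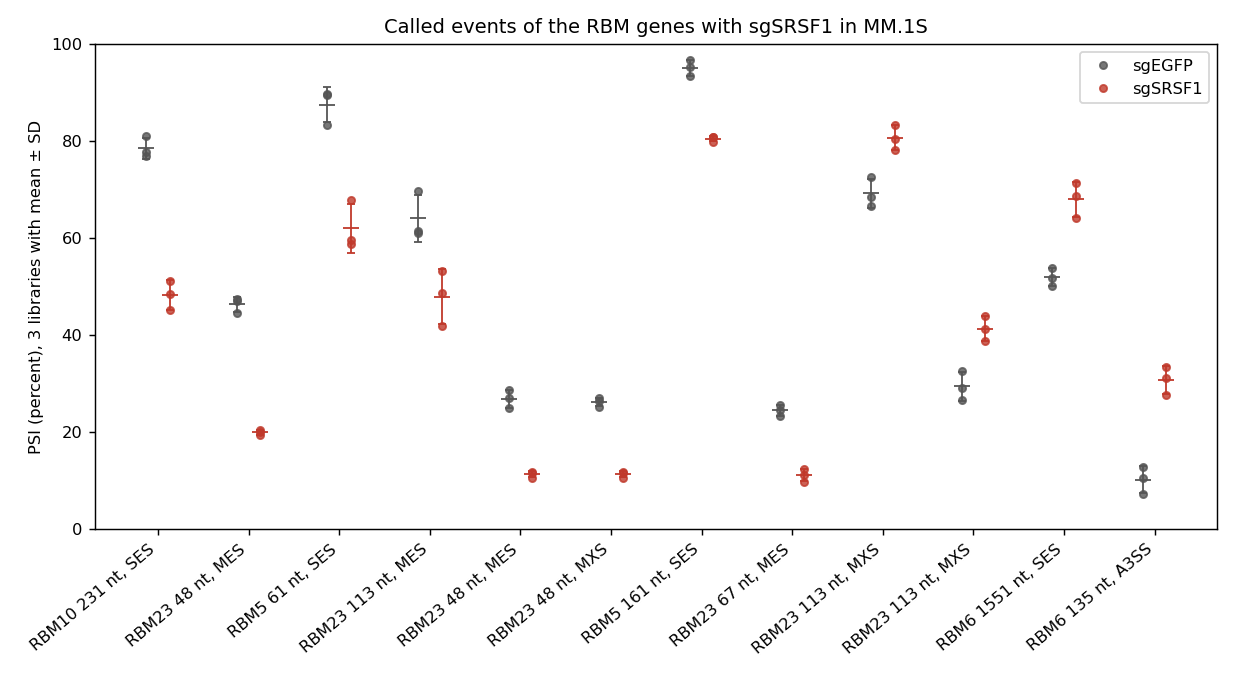
PSI in percent of each called event of the RBM genes in MM.1S with sgEGFP (grey) and sgSRSF1 (red), with single libraries as points and mean ± SD as bars. Events are ordered by their difference and named by gene, length and the tables' class code, and 1 of 2 RBM6 entries with identical values is drawn; RBM10 falls most, from 78.5 to 48.2%, and RBM6 rises most, from 10.2 to 30.7%.

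With sgHNRNPL, against the same controls, 0 of 80 events of these genes were called, while 4 had a deposited p under 0.05 and 1.81% of all events in the table were called. limma also called 0 of them, and 0.234% of all events. Their median absolute difference was 0.666 points, against 1.18 over all events. Outside these tables a single event was called, in RBM6 in INA-6 with IL-6, out of 5 with a p-value where 12.2% of all listed events were called. None was called among 8 for MM.1S with IL-6, 9 for MM.1S sgPOU2AF1, 5 for MM.1S sgELL2, 7 for INA-6 sgPOU2AF1 and 3 for INA-6 sgELL2, where 13.9%, 10.2%, 11%, 10.1% and 10.2% of all listed events were. With 3 libraries against 3 an exact permutation test cannot go below 0.10, so no single event can pass on that test.

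**Figure D2:**
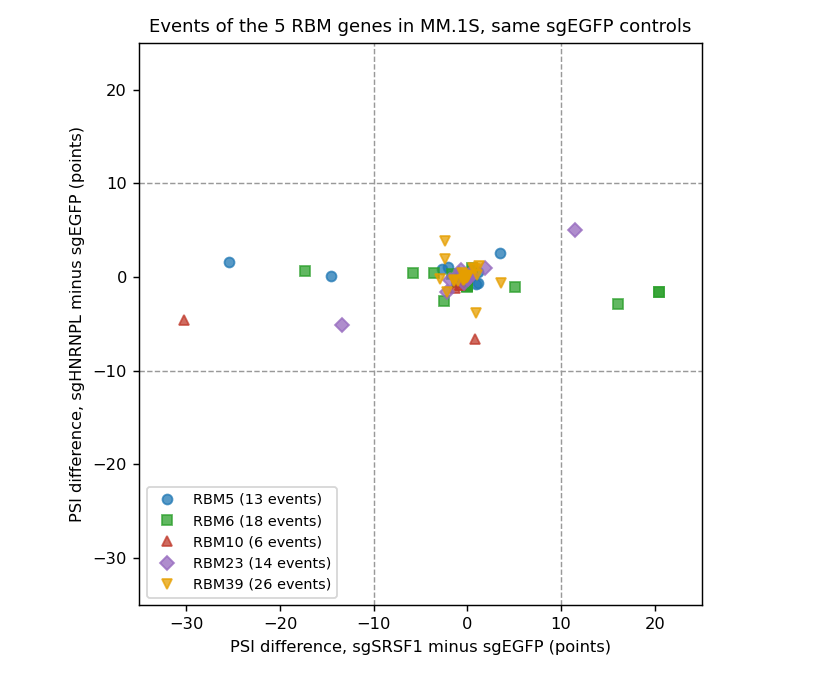
Difference in PSI points from the shared sgEGFP group for the 77 events of the 5 genes listed in both complete MM.1S tables, sgSRSF1 on the horizontal axis and sgHNRNPL on the vertical. Dashed lines mark 10 points; events spread from -30.3 to 20.5 points with sgSRSF1 and stay inside 10 points with sgHNRNPL.

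RBM10 carried the largest difference of the 5 genes. Its 231-nt exon stood at 76.9, 77.7 and 81.0% in the sgEGFP libraries of MM.1S and at 48.4, 51.2 and 45.1% with sgSRSF1. All sgSRSF1 libraries lay far below all controls. The exon fell by 30.3 ± 2.15 points (SE), with a limma adjusted p of 0.00852. With sgHNRNPL the libraries gave 71.3, 75.03 and 75.6%, a difference of -4.55 ± 1.85 points that limma did not call (adjusted p = 0.570), although no library overlapped the controls. Compared directly, sgSRSF1 cells included the exon less than sgHNRNPL cells, a difference of -25.7 ± 2.20 points with limma adjusted p = 0.0110 over 43097 events.

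In INA-6 the same RBM10 exon moved by less than 10 points. Libraries without IL-6 gave 78.0, 75.1 and 76.4% and those with IL-6 gave 82.6, 83.5 and 84.6%, a difference of 7.07 ± 1.03 points. The INA-6 sgEGFP libraries gave 80.05, 77.2 and 79.8%. Against them, sgPOU2AF1 libraries gave 67.7, 73.3 and 72.99%, a difference of -7.67 ± 2.02 points, and sgELL2 libraries gave 71.5, 73.1 and 72.3%, a difference of -6.73 ± 1.01 points. In each of these comparisons the groups did not overlap, which listing at p under 0.05 favours. Their limma adjusted p-values, over events listed because p was under 0.05, were 0.00499, 0.00982 and 0.00948. Adjusting over events chosen this way favours a pass, so these values add little to the listing. With the deposited p adjusted by Benjamini-Hochberg over an assumed 58062 events, the smallest values for the RBM genes followed here were 0.301, 0.230 and 0.744. The sgPOU2AF1 and sgELL2 differences rest on the same controls.

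Ordered by mean, the RBM10 exon ran from 48.2 ± 3.01% in MM.1S sgSRSF1 through 71.3 ± 3.13% in INA-6 sgPOU2AF1, 72.3 ± 0.791% in INA-6 sgELL2 and 74.0 ± 2.34% in MM.1S sgHNRNPL. It went on through 76.5 ± 1.49% in INA-6 without IL-6, 78.5 ± 2.18% in MM.1S sgEGFP and 79.0 ± 1.56% in INA-6 sgEGFP to 83.6 ± 0.978% in INA-6 with IL-6. The libraries of neighbouring groups overlapped except at both ends, where the lowest and the highest group stood clear of their neighbour. The other RBM10 events in the sgSRSF1 table differed by -1.31 to 0.801 points. In the sgHNRNPL table the largest was a 3-nt alternative 5′ splice site at chrX:47180038-47180040, at 44.8 ± 6.98% with sgEGFP and 38.1 ± 1.26% with sgHNRNPL (limma adjusted p = 0.646). An alternative 5′ splice site of the first exon, 31 nt at chrX:47145486-47145516, differed by 2.45 ± 0.515 points in INA-6 sgELL2.

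**Figure D3:**
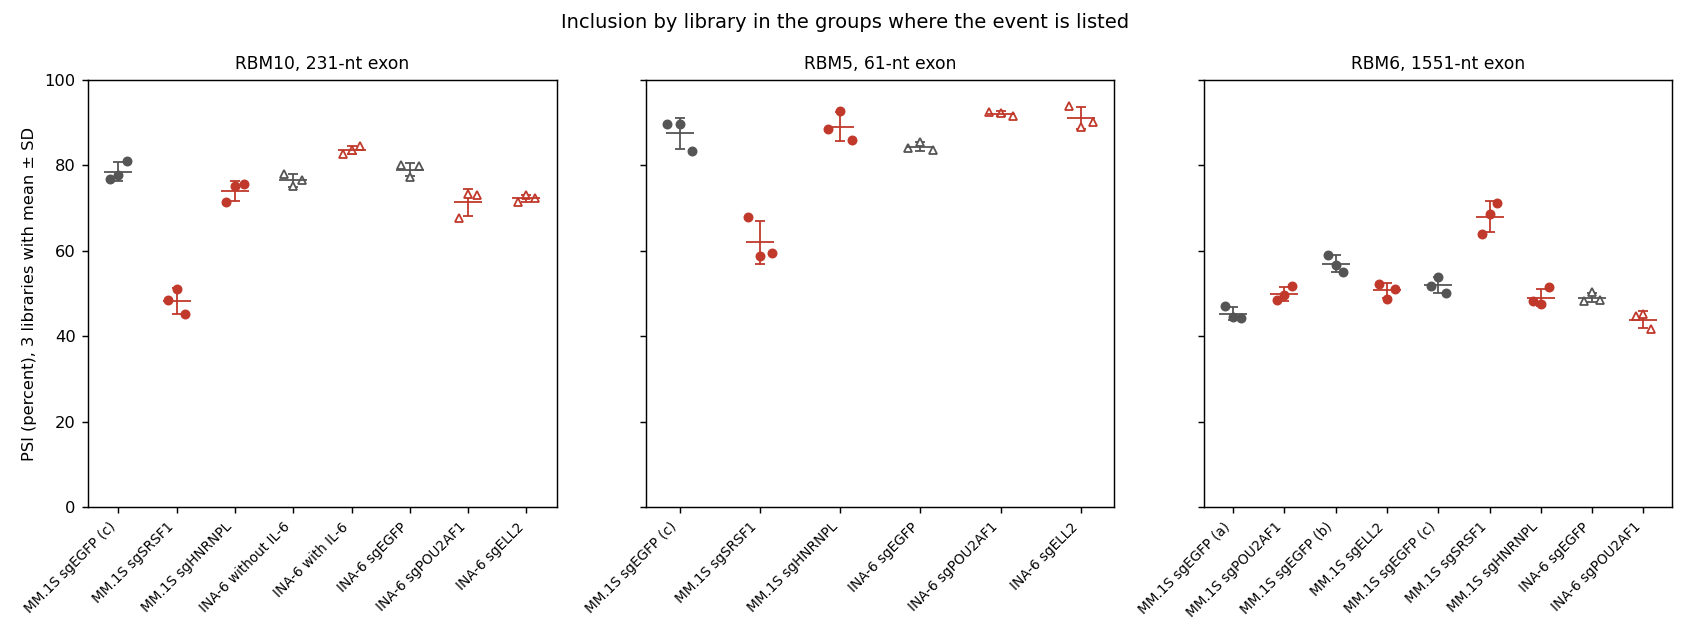
PSI in percent by library (points, circles MM.1S, triangles INA-6) with mean ± SD for 1 exon each of RBM10, RBM5 and RBM6, in every group where the event is listed; control groups are grey and treated groups red, and letters a, b and c mark the sgEGFP groups of sgPOU2AF1, sgELL2 and the sgSRSF1 and sgHNRNPL pair. The sgSRSF1 group lies apart in each panel, at 48.2, 62.0 and 68.0%.

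RBM5 included 2 exons less with sgSRSF1. Exon 8, of 61 nt, stood at 89.5, 89.6 and 83.2% with sgEGFP and at 67.8, 58.7 and 59.5% with sgSRSF1, and fell by 25.5 ± 3.58 points (limma adjusted p = 0.0195). Exon 10, of 161 nt, stood at 96.6, 93.4 and 95.2% with sgEGFP and at 79.9, 80.7 and 80.8% with sgSRSF1, and fell by 14.6 ± 0.982 points (limma adjusted p = 0.0149). For each exon every sgSRSF1 library lay below every control. The adjusted p rose as high as 0.0674 for exon 8 and 0.0572 for exon 10 when single libraries were left out: sgEGFP library 1 or 2 and sgSRSF1 library 2 or 3 for exon 8, sgEGFP library 3 or any sgSRSF1 library for exon 10.

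With sgHNRNPL, exon 8 of RBM5 was at 88.4, 92.6 and 86.0% and overlapped the controls, and exon 10 averaged 95.1%. Set against sgSRSF1 directly, exon 8 was lower with sgSRSF1, a difference of -27.0 ± 3.48 points, and so was exon 10, at -14.6 ± 0.968 points (limma adjusted p = 0.0172 and 0.0112). In INA-6 exon 8 moved the other way by less than 10 points. From 84.0, 85.5 and 83.6% with sgEGFP it stood at 92.5, 92.3 and 91.5% with sgPOU2AF1 and at 93.9, 89.0 and 90.03% with sgELL2. The differences were 7.72 ± 0.638 and 6.62 ± 1.59 points against the same controls, and no treated library reached down to them. Listing at p under 0.05 favours such a separation.

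Another RBM5 exon, of 85 nt at chr3:50110379-50110463 and exon 16 of 25, was higher with sgSRSF1 by 3.45 ± 0.441 points, from 93.5% (limma adjusted p = 0.0318), under the size needed for a call. With sgHNRNPL it was at 96.0%, a difference of 2.56 ± 0.680 points that did not pass (limma adjusted p = 0.333). The direct difference between both guides was 0.893 ± 0.685 points (limma adjusted p = 0.483). The 74-nt exon 6 at chr3:50100532-50100605 differed by -1.85 ± 0.492 points in MM.1S sgPOU2AF1. In MM.1S with IL-6 the single listed RBM5 event was a retained intron at chr3:50100052-50100531, at 2.04 ± 0.400% without and 0.733 ± 0.0753% with IL-6. In INA-6 with IL-6 it was another retained intron, at chr3:50114252-50115427, listed at 0 without IL-6 and at 0.187% with it.

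RBM6 differed at exon 3, which is annotated with a shorter and a longer form. The shorter form, chr3:49967470-49968748, has 1279 nt, and the longer form, chr3:49967198-49968748, begins 272 nt further upstream and has 1551 nt. With sgSRSF1 the upstream 3′ splice site rose from 10.6, 12.7 and 7.30% to 33.3, 31.1 and 27.7%, by 20.5 ± 2.28 points (limma adjusted p = 0.0184). The tables list it as 2 entries, of 272 nt and 135 nt, with identical values. The entry of the longer exon rose from 51.8, 53.8 and 50.1% to 64.0, 68.7 and 71.3%, by 16.1 ± 2.37 points (limma adjusted p = 0.0417). The shorter form, in an entry the tables class as MES, stood at 60.8, 59.95 and 57.7% with sgEGFP and at 38.2, 36.4 and 51.8% with sgSRSF1. That difference of -17.4 ± 4.93 points was not called, and sgSRSF1 library 3 lay well above the other sgSRSF1 libraries.

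These RBM6 entries share reads and are not independent. In the sgEGFP libraries the upstream splice site averaged 10.2%, the longer exon's entry 51.9% and the shorter form's entry 59.5%. The PSI of the longer exon's entry is therefore not the share of the longer form. The call by limma for the upstream splice site was lost without sgEGFP library 1 or any one sgSRSF1 library, with adjusted p up to 0.0657. For the longer exon it was lost without any one library, with adjusted p up to 0.115. Directly compared, the longer exon was 18.9 ± 2.43 points higher with sgSRSF1 than with sgHNRNPL, where it was at 48.1, 47.6 and 51.4% (limma adjusted p = 0.0264), which no longer passed when PSI was clipped less (adjusted p = 0.0579). The upstream splice site was at 30.7% and 8.55% in these groups, a difference that did not pass on logit PSI and passed on PSI in points (limma adjusted p = 0.0686 and 0.0273).

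The shorter RBM6 form was also the single called event outside the sgSRSF1 table. In INA-6 it stood at 56.2, 60.1 and 56.8% without IL-6 and at 45.04, 44.7 and 50.2% with IL-6, and fell by 11.04 ± 2.14 points (limma adjusted p = 0.00752 over listed events). The groups did not overlap, which the call rule favours, and adjusting over listed events favours a limma pass. With the deposited p adjusted by Benjamini-Hochberg over an assumed 58062 events, the RBM genes' smallest value in this comparison was 0.301. Without control library 2, or without library 1 or 2 of the cells with IL-6, the event no longer met the call rule.

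The entry of the longer RBM6 exon was listed in 5 tables, with differences under 10 points outside the sgSRSF1 table. With sgPOU2AF1 it went from 47.0, 44.6 and 44.3% to 48.4, 49.6 and 51.7% in MM.1S, a difference of 4.62 ± 1.29 points. In INA-6 it went from 48.3, 50.3 and 48.6% to 44.7, 45.3 and 41.7%, a difference of -5.16 ± 1.28 points. The limma adjusted p-values over listed events were 0.0265 in MM.1S and 0.0232 in INA-6. Leaving out single libraries raised them to as much as 0.0782 and 0.0711. The difference between the cell lines, 9.78 points, passed limma's interaction test with adjusted p = 0.00202 over 547 events listed in both tables. Of those 547 events 217 passed. Listing at p under 0.05 in both lines favours a pass where signs are opposite, so the pass adds little to the signs. With sgELL2 in MM.1S it went from 59.1, 56.7 and 55.1% to 52.3, 48.8 and 51.1%, a difference of -6.24 ± 1.56 points. The 3 sgEGFP groups of MM.1S, made for separate experiments, averaged 45.3, 51.9 and 56.95% for this exon, a wider range than any of these differences.

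Other RBM6 events in the tables of selected events were small. A 1530-nt alternative 3′ splice site, chr3:50046716-50048245, was at 2.11 ± 1.09% with sgEGFP and 5.06 ± 0.440% with sgPOU2AF1 in MM.1S. A 35-nt exon, chr3:50060801-50060835, was under 2% in every library of the 4 tables that list it. A 17-nt alternative 3′ splice site, chr3:50059632-50059648, was at 0 in all but 1 library of its 4 tables.

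RBM23 changed in MM.1S with sgSRSF1 at its 48-nt exon. The tables list this exon under several transcripts and class codes, so its entries overlap. In the entry for ENST00000307814 it fell from 47.1, 44.4 and 47.4% to 20.4, 19.4 and 20%, a difference of -26.4 ± 0.982 points (limma adjusted p = 0.00675). In the entry for ENST00000553920 it fell from 26.9, 28.6 and 24.9% to 11.8, 11.6 and 10.6%, a difference of -15.5 ± 1.12 points (adjusted p = 0.0108). Another entry, for ENST00000555209, gave 26.2 ± 0.918 and 11.3 ± 0.619%. A 67-nt form of the exon, chr14:22908333-22908399, fell from 24.5, 25.6 and 23.3% to 11.1, 12.3 and 9.79%, a difference of -13.4 ± 0.976 points (adjusted p = 0.0149). In all 4 entries each sgSRSF1 library lay below every control. The test of the 67-nt form no longer passed without sgEGFP library 1 or 2 or sgSRSF1 library 1, with adjusted p up to 0.0555.

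With sgHNRNPL the entry of the 48-nt exon for ENST00000307814 was not called, on either its p or its size, at 44.4, 42.7 and 45.5% with sgEGFP and 27.3, 39.1 and 36.4% with sgHNRNPL, a difference of -9.89 ± 3.66 points (limma adjusted p = 0.462). Its libraries were below the controls but scattered widely. The 67-nt form averaged 11.05% with sgSRSF1 and 19.3% with sgHNRNPL, a direct difference of -8.29 ± 2.65 points that did not pass (limma adjusted p = 0.0973). The 48-nt entries of the complete tables have different flanking coordinates and were not compared directly. In MM.1S sgPOU2AF1 the exon, in the ENST00000553920 entry, went from 28.0, 22.8 and 25.5% to 32.5, 29.5 and 30.6%, a difference of 5.42 ± 1.74 points.

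The neighbouring RBM23 exon of 113 nt, chr14:22909483-22909595, gave differences of both signs with sgSRSF1, depending on the entry. In 2 entries of class MXS it met the call rule as higher, from 29.4 ± 2.96 to 41.3 ± 2.61% and from 69.2 ± 3.02 to 80.7 ± 2.59%. In the MES entry for ENST00000307814 it met the rule as lower, from 64.0 ± 4.83 to 47.9 ± 5.63%. In the MES entry for ENST00000556984 it was at 41.4 ± 3.48 and 39.2 ± 2.22% and was not called. The limma adjusted p-values of the 3 called entries were 0.0767, 0.0654 and 0.0923, so none passed that test; on PSI in points the 2 MXS entries did (0.0438 and 0.0479). A 19-nt extension, chr14:22908381-22908399, was listed at 0 in every library of 5 tables.

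RBM39 had the most events and no call in any table. With sgSRSF1 its differences ran from -2.94 to 3.54 points and with sgHNRNPL from -3.89 to 3.80 points, with medians of the absolute difference of 0.601 and 0.340 points. The largest with sgSRSF1 was an 18-nt alternative 3′ splice site, chr20:35709257-35709274, at 47.6 ± 1.88 and 51.2 ± 2.15% (limma adjusted p = 0.534). The largest with sgHNRNPL was the 73-nt exon of the ENST00000463098 entry, at 97.8 ± 2.63 and 93.9 ± 0.495% (limma adjusted p = 0.424). A stretch at chr20:35734186-35735081, at 3.59, 4.44 and 3.94% with sgEGFP, was at 1.56, 2.08 and 1.22% with sgSRSF1 and at 5.74, 5.96 and 5.87% with sgHNRNPL. It was lower with sgSRSF1 than with sgHNRNPL, a difference of -4.24 ± 0.257 points (limma adjusted p = 0.0122).

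Of the RBM39 exons that the tables class with nonsense-mediated decay (NMD), a 73-nt exon at chr20:35740525-35740597, listed for ENST00000403542, was the most included. In MM.1S it stood at 9.16, 10.3 and 10.7% without IL-6 and at 6.89, 7.57 and 6.75% with IL-6, a difference of -2.98 ± 0.520 points. With sgPOU2AF1 it went from 10.9, 10.1 and 9.72% to 13.3, 13.7 and 15.7%, a difference of 3.96 ± 0.848 points. The groups did not overlap in either comparison, which listing at p under 0.05 favours. The limma adjusted p-values were 0.00560 and 0.00887 over listed events, which favours a pass. With the deposited p adjusted by Benjamini-Hochberg over an assumed 58062 events, the RBM genes' smallest values in these comparisons were 0.352 and 0.601. These sgEGFP cells were also kept with IL-6, yet their libraries overlapped those without IL-6 and lay above those with IL-6. In the entry of the complete tables it was at 11.7, 12.5 and 14.3% with sgEGFP, 10.1, 11.2 and 9.87% with sgSRSF1 and 18.2, 16.1 and 15.4% with sgHNRNPL. It was lower with sgSRSF1 than with sgHNRNPL, a difference of -6.21 ± 0.937 points (limma adjusted p = 0.0495), which no longer passed when PSI was clipped less (adjusted p = 0.110). The ENST00000463098 entry has the same coordinates and gave the other direction, at 98.8% with sgSRSF1 and 93.9% with sgHNRNPL, a difference of 4.81 ± 1.28 points that did not pass (limma adjusted p = 0.0926). The direction for this stretch therefore depends on the entry.

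A second NMD-classed RBM39 exon, 156 nt at chr20:35713702-35713857, stayed under 4% in every library of its 5 tables. It was at 2.36 ± 0.283 and 3.35 ± 0.180% in MM.1S with sgEGFP and sgPOU2AF1, at 1.97 ± 0.210 and 2.67 ± 0.169% with sgEGFP and sgELL2, and at 1.26 ± 0.245 and 2.03 ± 0.112% in INA-6 with sgEGFP and sgPOU2AF1. With sgSRSF1 it was at 0.591, 0.119 and 0.448%, against 1.28, 2.21 and 1.97% with sgEGFP (limma adjusted p = 0.114). The sgPOU2AF1 differences in MM.1S and INA-6, 0.992 and 0.762 points, did not pass the interaction test (limma adjusted p = 0.497), which does not show that they are equal.

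The coding 66-nt exon 5 of RBM39, shown above, differed in opposite directions with IL-6. In MM.1S it was at 90.2, 89.4 and 90.7% without IL-6 and at 87.9, 87.7 and 88.3% with it, a difference of -2.12 ± 0.419 points. In INA-6 it was at 93.8, 92.4 and 93.5% without and 94.7, 95.8 and 94.7% with IL-6, a difference of 1.85 ± 0.574 points. The INA-6 difference passed limma over listed events (adjusted p = 0.0199) and no longer passed without control library 2 (adjusted p = 0.0544). The difference between the lines, -3.97 points, passed limma's interaction test with adjusted p = 0.00184 over 615 events listed in both tables. Of those 615 events 304 passed. Listing at p under 0.05 in both lines favours a pass where signs are opposite, so the pass adds little to the signs. With sgSRSF1 and sgHNRNPL the exon was at 94.0% in each, against 92.8 ± 1.26% with sgEGFP, and the libraries overlapped. These sgEGFP cells were also kept with IL-6, yet stood above MM.1S both without and with IL-6, at 90.1 ± 0.650 and 88.0 ± 0.320%. They lay farther from the MM.1S cells with IL-6 than either IL-6 difference.

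**Figure D4:**
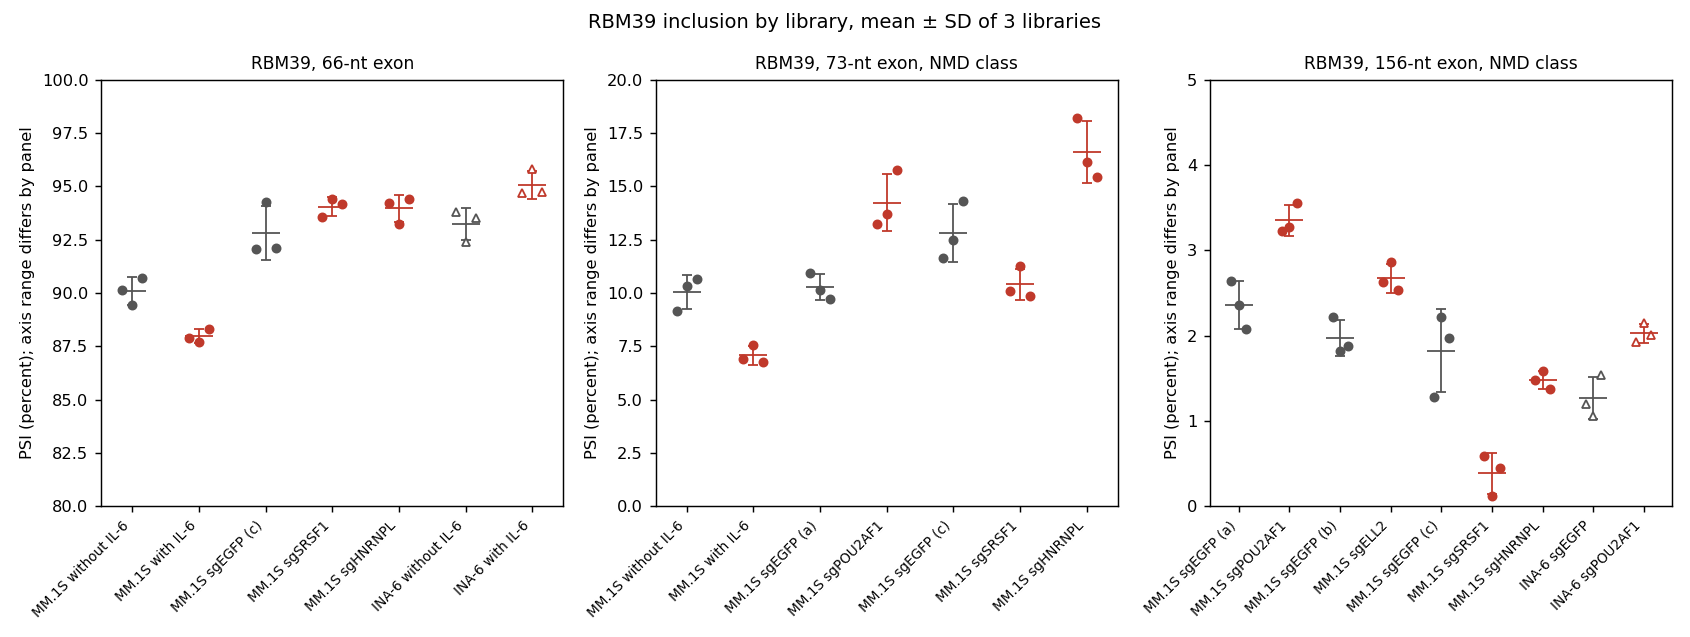
PSI in percent of 3 RBM39 exons by library (points, circles MM.1S, triangles INA-6) with mean ± SD in every group where the exon is listed; the vertical range differs by panel and does not start at 0 for the 66-nt exon. The 66-nt exon stays between 87.7 and 95.8%, the 73-nt exon is at 7.07% in MM.1S with IL-6, and the 156-nt exon is lowest with sgSRSF1 at 0.386%. The panel of the 73-nt exon joins entries of different class codes, SES for sgPOU2AF1 and MXS for sgSRSF1 and sgHNRNPL. Its levels are therefore not comparable between those entries.

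An entry that joins the 66-nt exon to 24 bases beside it, 90 nt at chr20:35729462-35729551, was listed in 5 tables at 40.9 to 47.2%. The 24 bases alone, listed as an alternative 3′ splice site, averaged 0.0804% with sgSRSF1 and 0.108% with sgHNRNPL. The 66-nt exon was at 94.0% in each, so the PSI of the 90-nt entry is not the share of transcripts with the extension. Differences of the 90-nt entry were -1.77 ± 0.379 points in MM.1S with IL-6, 1.70 ± 0.333 in MM.1S sgPOU2AF1 and -0.955 ± 0.324 in INA-6 sgPOU2AF1. None passed limma on logit PSI (adjusted p = 0.188, 0.182 and 0.500), and all passed on PSI in points (adjusted p = 0.0129, 0.0135 and 0.0331). All 7 RBM39 events listed for MM.1S with IL-6 were lower with IL-6, the largest being the 18-nt splice site from 50.3 ± 1.02 to 45.1 ± 2.07%, while all 5 listed for MM.1S sgPOU2AF1 were higher, from 0.340 to 3.96 points. These entries overlap and were listed because p was under 0.05. In MM.1S sgELL2 the largest RBM39 difference was a retained intron of 131 nt, chr20:35742114-35742244, at 52.5 ± 0.838 and 54.9 ± 1.08% (limma adjusted p = 0.0881, and 0.0297 on PSI in points). The sgEGFP group of the sgSRSF1 and sgHNRNPL cells stood at 33.8 ± 1.55% for this intron, farther away than this difference. In INA-6 sgPOU2AF1 it was a retained intron of 738 nt, chr20:35707202-35707939, at 1.69 ± 0.0918 and 2.89 ± 0.301%. A retained intron of 977 nt, chr20:35739548-35740524, was under 2.5% in every library of its 4 tables.

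Other genes of the same kind gave a comparison. Of 34 other RBM genes, 30 were listed with sgSRSF1 and 3 had a called event, 1 higher and 2 lower, against 19.1% of all genes in that table. They were RBM41, from 64.9 ± 3.28 to 81.9 ± 2.19%, RBM12, from 65.4 ± 2.00 to 50.3 ± 4.55%, and RBM26, from 25.5 ± 0.614 to 10.7 ± 1.60%. Of 24 genes of 3′ splice site recognition and the early spliceosome, 21 were listed and 2 had a called event. These were U2AF1L4, a relative of the small U2AF subunit, from 39.5 ± 4.62 to 19.0 ± 4.96%, and SUGP2, from 69.2 ± 1.78 to 80.3 ± 1.91%. With sgHNRNPL 0 of 30 and 0 of 20 listed genes had a called event, where 7.31% of all genes did. The median absolute difference with sgSRSF1 was 1.44 points for the other RBM genes and 0.985 for the second list. Of their events with a p-value in that table, 2.38% of 126 and 2.08% of 144 were called. Counts of genes with a call depend on how many events each gene has.

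In the tables of selected events, the other RBM genes with a called event were 1 of 8 listed in MM.1S with IL-6, 0 of 7 in MM.1S sgPOU2AF1 and 0 of 3 in MM.1S sgELL2, where 18.7%, 13.01% and 12.9% of all listed genes had one. In INA-6 they were 0 of 11 with IL-6, 1 of 13 with sgPOU2AF1 and 2 of 6 with sgELL2, where 9.502%, 10.8% and 7.05% of all listed genes had one. For the second list the counts in the same order were 1 of 9, 1 of 10, 0 of 7, 0 of 10, 0 of 11 and 1 of 6. In MM.1S with IL-6 the called genes were RBM48, from 11.01 ± 4.19 to 22.4 ± 3.99%, and SF1, the branch point binding protein, from 86.7 ± 3.80 to 75.4 ± 2.71%. In MM.1S sgPOU2AF1 it was U2AF1L4, from 45.7 ± 3.38 to 33.8 ± 1.85%. In INA-6 RBM41 went from 53.1 ± 1.73 to 40.3 ± 2.92% with sgPOU2AF1 and, in another event, from 52.3 ± 2.46 to 66.6 ± 3.26% with sgELL2. RBM12 went from 20.6 ± 3.57 to 34.3 ± 3.10% with sgELL2. PUF60, a U2AF-related factor, went from 62.2 ± 7.71 to 37.1 ± 8.44% in the same comparison. None of these lists was tested as a set.

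The events most like the RBM10 exon across groups were sought among the 1705 events listed in the same 5 tables. Pearson's correlation of mean PSI over the 8 groups was taken for the 97 events of other genes with a range of at least 10 points. The 5 highest were 2 overlapping events of CHTF8 (r = 0.970 and 0.921), a 75-nt exon of PTP4A3 (0.928), an event of COQ9 (0.914) and an exon of HNRNPD (0.900). In MM.1S sgEGFP and sgSRSF1 the first CHTF8 event was at 43.7 and 27.0%, the PTP4A3 exon at 88.0 and 75.1%, the COQ9 event at 98.5 and 86.9%, and the HNRNPD exon at 40.9 and 21.6%. These correlations describe 8 groups that share controls and were chosen as the highest, and they carry no test. The sgSRSF1 group weighs most in them, with the RBM10 exon at 48.2% there and at 71.3 to 83.6% in the remaining groups. A high r therefore says little about likeness among those remaining groups.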

How the data were processed

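The submitters' processing notes name STAR 2.7.10b, SAMtools 1.19.2 and GRCh38. The splicing caller and its annotation are not stated there or in the labels. Per event, the authors' deposited tables give PSI in percent for each of 3 libraries per group, with no replicate number, and, as a signed score, the difference of mean PSI (treated minus control). The deposited p-value column, headed as a Benjamini-Hochberg FDR, equalled an unadjusted Welch p recomputed from the listed PSI within 1% in all 144287 events where one could be computed, and was used as such. Value headers of the INA-6 sgPOU2AF1 and sgELL2 tables name MM.1S, but their titles and remaining headers name INA-6; they were taken as INA-6, and a mix-up would change the line named beside those values. Which of 2 providers made a library is not given, and no provider batch was tested.

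limma 3.58.1 (R 4.3.3) was fitted per table to log2 odds of PSI clipped to 1 and 99%, with Benjamini-Hochberg adjustment over the 50150 and 49622 events it could test for sgSRSF1 and sgHNRNPL and over listed events elsewhere, and was checked on simulated data. Differences between lines used its interaction term. Exon numbers and sequences are from GENCODE release 29. Named events were all called events, the largest difference per gene and table, and events in at least 4 tables. The genes and lists were chosen with earlier results of these data known. Alternatives were 5 and 20 points, complete values, adjusted p-values, PSI in points, clipping at 0.1 and 99.9%, and leaving out each library. Other steps used Python 3.11.15, numpy 2.4.6, pandas 2.3.3, scipy 1.17.1 and matplotlib 3.10.9.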

Additional observations from a re-analysis of the deposited data

Results flagged for a closer look

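In 2 events the same treatment gave different changes in the 2 cell lines by limma's interaction test. With IL-6 the 66-nt exon of RBM39 differed by -2.12 points in MM.1S and 1.85 points in INA-6, a gap of -3.97 points (adjusted p = 0.00184). With sgPOU2AF1 the 1551-nt exon of RBM6 differed by 4.62 points in MM.1S and -5.16 points in INA-6, a gap of 9.78 points (adjusted p = 0.00202). Both were tested over events that each table listed because p was under 0.05, which favours a pass where signs are opposite. For IL-6 304 of 615 events passed, and for sgPOU2AF1 217 of 547. The differences within lines did not all pass limma when single libraries were left out, as given above. For the RBM39 exon, MM.1S sgEGFP cells kept with IL-6 averaged 92.8%, against 88.0% in MM.1S with IL-6, a wider gap than either difference. A further 2 RBM39 events tested for sgPOU2AF1 did not pass (adjusted p = 0.0724 and 0.497). The first of these, RBM39's 90-nt entry, did pass on PSI in points (limma adjusted p = 0.00180).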

How the results depend on the processing

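Calls depended on the size required and on adjustment. With sgSRSF1 the 13 called events became 5 at 20 points, 2 with a Benjamini-Hochberg adjusted deposited p, and 10 to 12 when single libraries were left out with p recomputed. The RBM6 call in INA-6 with IL-6 became 2 events at 5 points, 0 at 20 points, 0 with the adjusted p, and 0 to 1 when single libraries were left out. At 5 points 1 event each was called in MM.1S with IL-6, MM.1S sgPOU2AF1 and MM.1S sgELL2, 3 in INA-6 sgPOU2AF1 and 2 in INA-6 sgELL2. At 10 points, where these 5 tables and the sgHNRNPL table had 0 calls with all libraries, leaving out any library also gave 0 calls. Leaving out libraries was not counted at 5 points. Over all events the calls went from 3337 to 2059 with limma and 178 with the adjusted p for sgSRSF1, and from 1047 to 116 and 0 for sgHNRNPL. For tables of selected events the adjustment, and leaving out libraries for the counts, were chosen after seeing the data, with 58062 events assumed.

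Of 341 leave-one-out fits of named events 289 kept their side and 45 fell short; a smaller sample is part of that construction. On PSI in points 11 fits passed that had not, and with less clipping 1 passed and 4 fell short. The reversed differences passed the test neither before nor after. When libraries were left out, the sgHNRNPL difference ranged from -0.183 to 1.74 points for RBM39's 90-nt entry, from -0.360 to 0.475 for RBM6's 35-nt exon and from -0.574 to 3.05 for RBM5 exon 8, and the sgSRSF1 difference of RBM39's 90-nt entry from -0.194 to 1.73. Changing the scale or clipping turned the fitted sign for RBM39's 156-nt exon between lines (0.230), an RBM39 retained intron (-0.112) and 2 RBM10 splice site entries (0.0706) between sgSRSF1 and sgHNRNPL. Without read counts, what depth limits cannot be given. No paired analysis was possible because the PSI lists carry no replicate numbers.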
